A study of Canis lupus familiaris with 8 samples.

Results

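The plasminogen activation genes examined here are PLAU, PLAUR, PLAT and SERPINE2, chosen by their symbols among the 37952 genes of the deposited table. Rows for 3 of these 4 genes were used, and PLAUR was not analysed here. All 3 passed the filter on low counts, as did 14571 genes in all. PLAU encodes urokinase and PLAT encodes tissue-type plasminogen activator, the proteases that cut plasminogen into the active enzyme plasmin. PLAUR encodes the surface receptor that holds urokinase at the cell membrane. SERPINE2, also called protease nexin-1, belongs to the serpins, which trap serine proteases in an irreversible complex, and it inhibits urokinase, tissue-type activator, thrombin and plasmin. Kidney epithelium is a classic source of urokinase, and plasmin formed at the cell surface is known to cut matrix proteins and to activate growth factors and metalloproteinases.

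The cells were MDCK GII, an epithelial line from dog kidney, and the labels name no added gene or allele for either group. They grew overnight as a monolayer on collagen-coated silicone membranes in purpose-built 6-well devices. The stretch group (4 wells) was held for 2 hours at 18% strain, applied by vacuum equally along both in-plane axes. The control group (4 wells) received no strain, and both groups carry replicate numbers 1 to 4. The labels call the wells technical quadruplets of this single line, so every error below is the spread between wells and no p-value here speaks for other cultures or lines. The animal's age and sex are not given in the sources used here.

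Libraries held 27047358 to 32478887 counts per well. All 8 listed kidney epithelium markers were detected, and their summed level per exon length lay between 2868 and 3224 in control wells and, after strain, between 3016 and 3108 (CPM per kilobase). CDH16, a kidney cadherin, was the lowest of them, with 20 to 59 counts per well. The summed levels of 6 fibroblast, 4 endothelial and 4 leukocyte markers stayed at or under 0.6601 in every well on this scale. COL1A2, COL3A1, LUM, PTPRC and CD3E had 0 counts in all 8 wells. PDGFRA, KDR and CD68 from these lists did pass the filter, with 53 to 113, 21 to 51 and 12 to 32 counts per well. In control wells PDGFRA measured 0.445 CPM per kilobase, against 0.382 for CDH16. These are bulk samples, in which a change in the number of expressing cells and a change in RNA per cell cannot be told apart.

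Per exon length, SERPINE2 was the most abundant of the 3 genes, followed by PLAU and then PLAT. SERPINE2 stood at 51.3 ± 4.41 CPM per kilobase without strain and 49.1 ± 3.46 after strain (mean ± SD, n = 4), above 87.1% of tested genes. PLAU stood at 7.88 ± 2.24 in control wells and 11.04 ± 2.90 in stretch wells, near the middle of the tested genes at the percentile 52. PLAT stood at 2.75 ± 1.15 in control wells and 3.60 ± 0.487 in stretch wells, at the percentile 30.1. The gaps from SERPINE2 to PLAU and from PLAU to PLAT were larger than the SDs of both genes in each group.

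**Figure D1:**
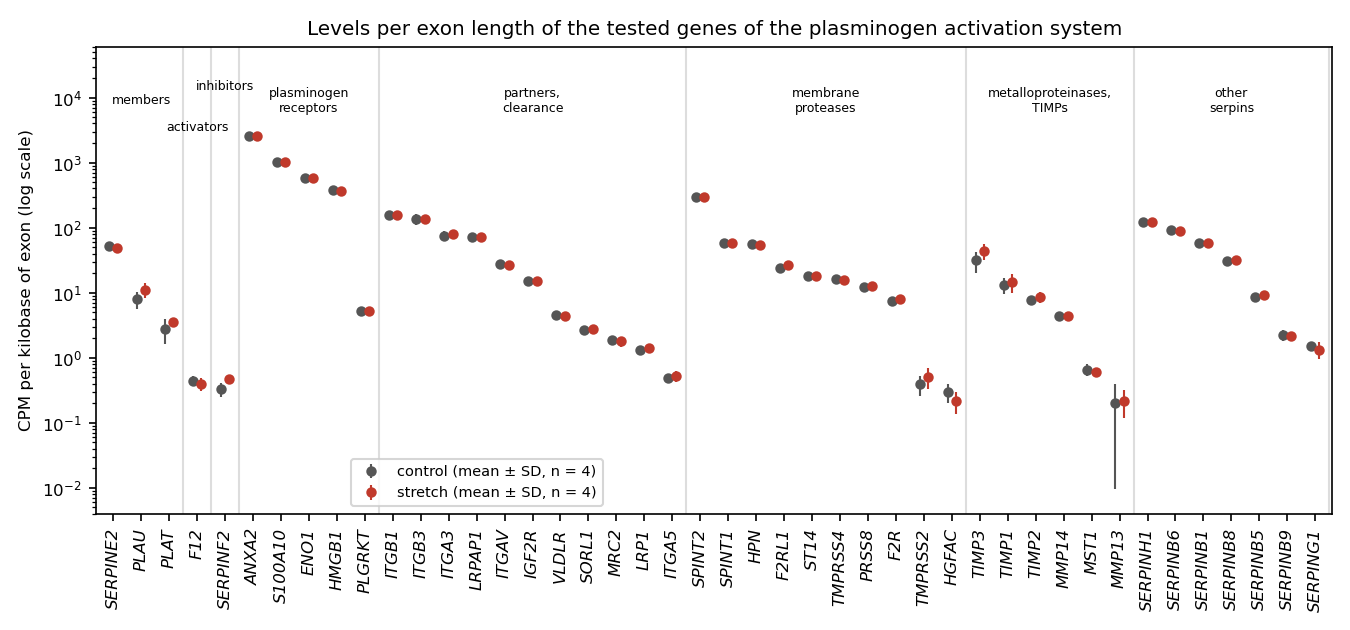
Levels of the members and of tested genes on 7 related lists, as CPM per kilobase of exon on a log axis, with points for the mean and bars for the SD of 4 control (grey) and 4 stretch (red) wells. SERPINE2 lies above PLAU and PLAT, and the plasminogen receptors ANXA2, S100A10, ENO1 and HMGB1 lie above every member.

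The question put to these wells was whether transcripts of the activators, or of their inhibitor, differ after 2 hours of strain. PLAU and PLAT were higher on average in stretch wells, by 1.4-fold and 1.31-fold, with overlapping groups. SERPINE2 was at nearly the same level in both. None of the 3 passed at an adjusted p under 0.05 in edgeR's quasi-likelihood test, whether without a block (0% of all tested genes passed) or with the replicate number as a block (0.7% of all tested genes passed, 0.528% as higher and 0.172% as lower). With the block, PLAU and PLAT had an unadjusted p under 0.05, as had 8.89% of all tested genes. Without it, none of the 3 did, against 3.97% of all tested genes.

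PLAU (gene ID 403426) lies on the plus strand of chromosome 4, from 25061896 to 25066649, with an exon length of 1418 bases. It overlaps 1 gene on the opposite strand, LOC119871478, which had 0 counts on average. In control replicates 1 to 4 PLAU measured 7.45, 10.8, 11.3 and 15.2 CPM, from 203 to 489 counts. In stretch replicates 1 to 4 it measured 11.3, 15.1, 21.2 and 15.1 CPM, from 328 to 618 counts. The lowest stretch well was at the level of control replicates 2 and 3, and control replicate 4 was as high as stretch replicates 2 and 4.

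The PLAU mean went from 11.2 ± 3.18 to 15.7 ± 4.11 CPM (SD, n = 4 each), a difference about as large as the spread between wells. The log2 change was 0.48 ± 0.23 (SE) without the block, with a 95% interval from -0.04 to 1.0 and an adjusted p of 0.9995 in edgeR's test. With the block it was 0.49 ± 0.13, with an interval from 0.21 to 0.77 and an adjusted p of 0.156. A higher log2 change was found for 2.1% of tested genes. Between wells of equal number, PLAU differed by 0.59, 0.48, 0.91 and -0.01 on the log2 scale for replicates 1 to 4. It was therefore higher after strain in 3 of 4 pairs, and replicate 4 showed no difference.

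Without replicate 4, PLAU passed in edgeR's test with the block, at a log2 change of 0.67 and an adjusted p of 0.021. This leaves out the only pair without a rise, which favours a pass, and 74 of all tested genes passed in that fit. Without stretch replicate 3, its log2 change without the block fell from 0.48 to 0.30 (adjusted p = 0.9995). The DESeq2 Wald test with the block called PLAU at an adjusted p of 0.0352, while limma-voom with the block gave 0.152. Of all 14571 tested genes, DESeq2 with the block called 145, limma-voom 122 and edgeR 102. PLAU is thus called by 1 of the 3 tools when the replicate numbers are used as pairs.

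PLAT (gene ID 482840) lies on the plus strand of chromosome 16, from 24203090 to 24229785, with an exon length of 2616 bases and no overlapping gene. Its control wells, replicates 1 to 4, measured 5.40, 5.05, 11.5 and 6.75 CPM, from 147 to 341 counts. Its stretch wells measured 8.93, 8.79, 11.3 and 8.63 CPM, from 238 to 330 counts. Replicate 3 was the highest well of each group, and control replicate 3 was the highest of all 8 wells. The other 3 control wells all lay below every stretch well.

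The PLAT mean went from 7.19 ± 3.00 to 9.42 ± 1.27 CPM (SD, n = 4 each), a difference smaller than the SD of the control wells. The log2 change was 0.39 ± 0.24 (SE) without the block, with a 95% interval from -0.14 to 0.92 (edgeR, adjusted p = 0.9995). With the block it was 0.44 ± 0.13, with an interval from 0.16 to 0.72 (edgeR, adjusted p = 0.197). The pairs differed by 0.72, 0.79, -0.03 and 0.35 on the log2 scale, so PLAT was higher in 3 of 4 pairs and level in replicate 3.

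Of single wells left out, control replicate 3 moved the PLAT value most. Without it, the log2 change without the block was 0.71, with an adjusted p of 0.165 in edgeR's test. Without both wells of replicate 3, the fit with the block gave 0.62 and an adjusted p of 0.00776. This leaves out the only pair without a rise, which favours a pass. In that fit 186 of all tested genes passed, against 102 with all pairs. Replicates 1 and 2 were also fitted apart from replicates 3 and 4, a division that is in no label and was chosen from earlier results of these wells. Within replicates 1 and 2 the PLAT change was 0.76 (edgeR, adjusted p = 0.0308), and within replicates 3 and 4 it was 0.13 (adjusted p = 0.985). The difference between these changes, -0.64, did not pass its own test (edgeR interaction term, adjusted p = 0.871). For PLAU the same changes were 0.52 and 0.46 (adjusted p = 0.450 and 0.649), and their difference of -0.07 had an adjusted p of 0.9991.

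**Figure D2:**
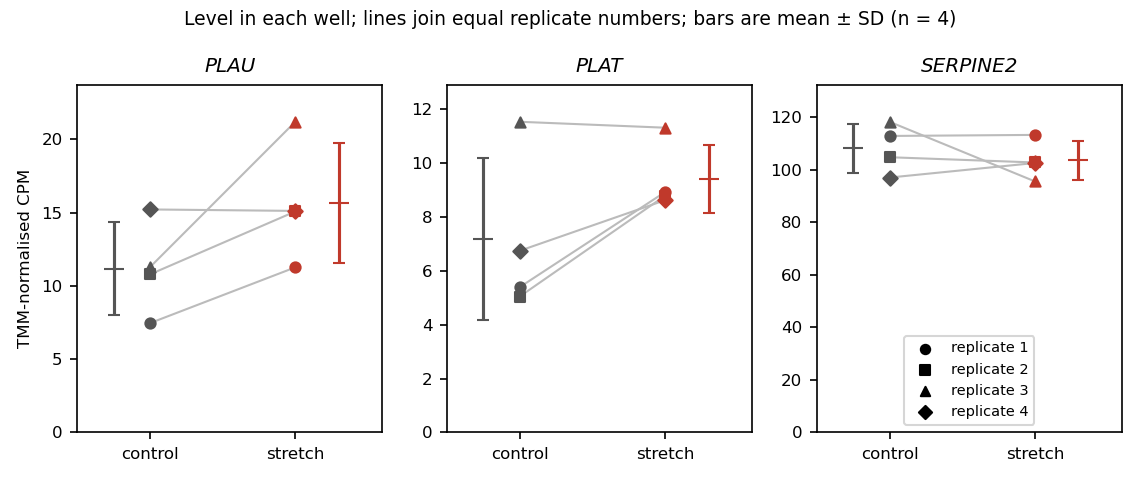
TMM-normalised CPM of PLAU, PLAT and SERPINE2 in each of 8 wells, with a marker shape per replicate number, lines joining equal numbers and bars for mean ± SD (n = 4). PLAU is level in replicate 4 and PLAT in replicate 3, while SERPINE2 lies between 95.6 and 118 CPM in all wells.

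SERPINE2 (gene ID 608930) lies on the minus strand of chromosome 37, from 29584772 to 29642251, with an exon length of 2111 bases and no overlapping gene. Control replicates 1 to 4 measured 113, 105, 118 and 97.1 CPM, from 3076 to 3495 counts. Stretch replicates 1 to 4 measured 113, 103, 95.6 and 103 CPM, from 2782 to 3307 counts. The groups overlapped almost entirely, and the wells varied less than those of PLAU or PLAT, with a coefficient of variation of 8.61% without strain and 7.05% after it. The corresponding values were 28.4% and 26.2% for PLAU and 41.7% and 13.5% for PLAT.

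The SERPINE2 mean went from 108 ± 9.32 to 104 ± 7.30 CPM (SD, n = 4 each). Its log2 change was -0.06 ± 0.07 (SE) without the block, and the 95% interval ran from -0.21 to 0.09 (edgeR, adjusted p = 0.9995). With the block the interval ran from -0.18 to 0.06 (adjusted p = 0.858). The pairs differed by 0.00, -0.03, -0.31 and 0.08, so replicate 3 carried most of the negative mean. Without replicate 3, the log2 change with the block was 0.02 (edgeR, adjusted p = 0.976). A fall or a rise of the size estimated for PLAU lies outside both intervals of SERPINE2.

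A further row of the table moved with SERPINE2 in every well. LOC119878767, a protein-coding gene on an unplaced scaffold (9875 to 34595, plus strand), has 8 exons, of which 6 in a row have the same lengths as 6 exons of SERPINE2, namely 228, 198, 199, 101, 87 and 84 bases. The last 4 of these lengths also occur in SERPINE3, another serpin gene, so equal lengths alone do not mark a copy. LOC119878767 had 2934, 3061, 3318 and 3014 counts in control replicates 1 to 4 and 3165, 2652, 2671 and 3161 in stretch replicates 1 to 4. Divided by the SERPINE2 count, this gave 0.945 to 0.966 over the 8 wells.

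The ratio of these rows varied by 0.65% of its mean (SD over 8 wells), whereas counting error alone would give 2.6% for separate sets of reads. The rows therefore did not vary as separate counts, and how the authors' counter treated reads that map to several genes is not given in the sources used here. The level of SERPINE2 is uncertain for this reason: the sum of both rows was 212 ± 17.7 CPM without strain and 203 ± 14.4 after strain. The summed rows gave a log2 change of -0.06 ± 0.07 (edgeR, adjusted p = 0.9994), a sum tried after the values had been seen. At so constant a ratio the sum must change nearly as either row does, so it cannot show how SERPINE2 alone changed. The changes given for SERPINE2 are therefore those of its row. No row of the table shared a run of 4 or more exon lengths with PLAU or PLAT.

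**Figure D3:**
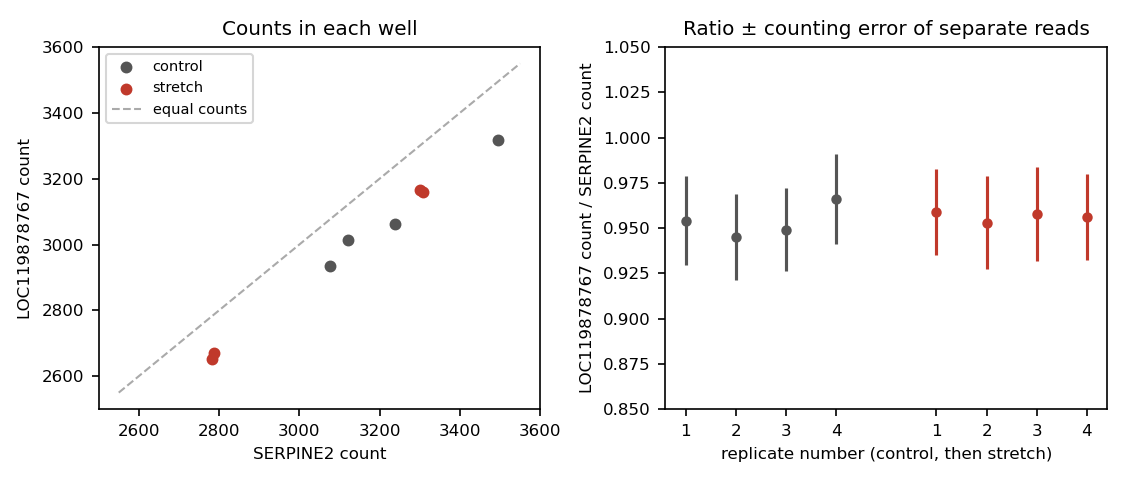
Left, counts of LOC119878767 against counts of SERPINE2 in each well, with a dashed line for equal counts. Right, their ratio by replicate number, with bars for the counting error that separate reads would have; the ratio stays between 0.945 and 0.966, and varies less from well to well than these bars.

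Set against SERPINE2 in the same well and per exon length, PLAU amounted to 9.82%, 15.3%, 14.2% and 23.3% of SERPINE2 in control replicates 1 to 4. In stretch replicates 1 to 4 it amounted to 14.8%, 21.8%, 33% and 21.9%. These shares need no scaling between libraries, and they overlapped between groups, with replicate 4 again slightly lower after strain. PLAT amounted to 3.86%, 3.89%, 7.87% and 5.61% of SERPINE2 in control replicates 1 to 4 and, after strain, to 6.36%, 6.9%, 9.55% and 6.78%. The PLAT share was higher after strain in 4 of 4 pairs, replicate 3 included, in which SERPINE2 itself was lower after strain, and the groups overlapped. PLAU exceeded PLAT in each well, by 1.80-fold to 4.16-fold without strain and by 2.33-fold to 3.46-fold after it, with overlapping ranges. If reads of SERPINE2 were divided between its row and LOC119878767, all shares of SERPINE2 given here would be lower.

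SERPINF2, the gene of the plasmin inhibitor alpha-2-antiplasmin, had 18 to 41 counts per well and went from 0.809 ± 0.197 to 1.18 ± 0.124 CPM, with no overlap between groups. Groups did not overlap for 1.3% of tested genes in the higher and 1.24% in the lower direction, and SERPINF2 did not pass (edgeR, log2 change 0.54, adjusted p = 0.9995, and 0.592 with the block).

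The transcript of plasminogen, the substrate of both activators, was not detected, and the protein was not measured. PLG, the gene of plasminogen, had 0 counts in all 8 wells, as had the inhibitor genes SERPINB2, SERPINA5, SERPINE3, PZP and CPB2, and VTN, which encodes vitronectin, a matrix ligand of the urokinase receptor. A count of 0 allows up to 3 counts, or 0.0924 to 0.111 CPM depending on the well, a limit for counting error only. Other proteases that can activate plasminogen were low or absent. F12, the gene of coagulation factor XII, had 27 to 48 counts per well and a log2 change of -0.18 (edgeR, adjusted p = 0.9995), and it overlaps other genes on both strands. KLKB1 had at most 5 counts in a well, and F11 and KLK1 had 0.

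Of the 5 genes of plasminogen-binding surface proteins, ANXA2, S100A10, ENO1 and HMGB1 were among the most abundant of the table, above at least 98.4% of tested genes. PLGRKT stood at the percentile 38.7. ANXA2 and S100A10, which together form the annexin A2 complex, measured 2528 ± 155.9 and 1022 ± 19.4 CPM per kilobase in control wells, and ENO1 measured 578 ± 32.02. All 5 plasminogen receptor genes had log2 changes between -0.06 and 0.02, and none passed with or without the block. HMGB1 and S100A10 had the smallest p-values of these, at -0.06 and 0.02 (edgeR, adjusted p = 0.9995 each).

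Partners and clearance receptors of the urokinase system differed little between groups. Of 13 listed genes, 11 were tested, and their log2 changes ran from -0.08 to 0.12, with a median of 0.0035, against -0.0032 over all tested genes. The integrin genes ITGB1, ITGB3 and ITGA3 measured 155 ± 7.36, 136 ± 28.2 and 75.4 ± 12.1 CPM per kilobase in control wells. LRP1, the receptor that takes up protease and serpin complexes, measured 1.31 ± 0.148 and changed by 0.10. VLDLR, a receptor of the same family, changed by -0.08. LRP2, the gene of megalin, the uptake receptor of the proximal tubule, had at most 4 counts in a well. None of the 11 passed with or without the block (edgeR).

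Of the 10 membrane serine proteases, their inhibitors and protease-activated receptors, all were tested and none passed in either fit. SPINT2 and SPINT1, inhibitors of matriptase and hepsin, were the most abundant at 298 ± 9.78 and 57.9 ± 2.50 CPM per kilobase in control wells. F2RL1, a receptor that trypsin-like proteases activate, measured 28.7 ± 3.75 CPM without strain and 31.8 ± 2.50 after it. Fitted with the block, it differed by 0.16 (edgeR's test, adjusted p = 0.441). HPN, which encodes hepsin, changed by -0.07 and overlaps a gene on the opposite strand that had 31.1 counts on average. PRSS8, the gene of prostasin, a protease that SERPINE2 inhibits, changed by 0.05 (edgeR, adjusted p = 0.9995).

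Metalloproteinases that plasmin is known to act on were scarce. MMP3 and MMP7 had 0 counts in all wells, MMP1, MMP2 and MMP9 had at most 4 in a well, and MMP13 had 6 to 32. MMP14, a membrane-bound metalloproteinase, measured 4.34 ± 0.392 CPM per kilobase in control wells and changed by 0.02. HGF, a growth factor that urokinase can activate, had 0 counts. TIMP3, the gene of a matrix-bound inhibitor of metalloproteinases and ADAM proteases, rose with the block, by 0.51 ± 0.07 on the log2 scale (edgeR, adjusted p = 0.00217). TIMP3 is thus among the genes that passed in the higher direction.

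TIMP3 measured 19.5, 19.1, 38.9 and 28.2 CPM in control replicates 1 to 4 and 28.7, 33.0, 51.5 and 35.1 CPM in stretch replicates 1 to 4. The groups overlapped, since replicate 3 was the highest well of each group and control replicate 3 lay above 3 stretch wells, but all 4 pairs were higher after strain, as they were for 8.45% of all tested genes (7.84% were lower in all 4). Without the block TIMP3 did not pass (edgeR, log2 change 0.49, adjusted p = 0.9995). With a block of only 2 levels, replicates 1 and 2 against replicates 3 and 4, the adjusted p was 0.504. TIMP3 passed in 8 of 25 alternatives. Among these were all 4 fits with the block and a pair left out (edgeR, adjusted p from 0.000177 to 0.0406). Its log2 change without the block ran from 0.29 to 0.73 when single wells were left out, with no pass. TIMP2 changed by 0.13 (edgeR, adjusted p = 0.9995).

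Of 12 other serpins listed, 7 were tested and none passed in either edgeR fit. Their log2 changes without the block ran from -0.20 to 0.09, with a median of -0.02. SERPINH1, a collagen chaperone without protease inhibition, was the most abundant of this list, at 123 ± 3.46 CPM per kilobase in control wells. The intracellular serpins SERPINB6 and SERPINB1 followed at 91.9 ± 4.31 and 58.5 ± 3.02. SERPINB5, the gene of maspin, had the smallest p of the list, with a log2 change of 0.09, followed by SERPING1, the gene of the complement C1 inhibitor, at -0.20, with a 95% interval from -0.66 to 0.26. Of the small LY6-domain relatives of PLAUR, 4 of 6 were tested and none passed. LYPD1 changed by -0.26 and LY6E by 0.05 (edgeR, adjusted p = 0.9995 each).

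The last list holds transcription factors known to act on the PLAU and PLAUR promoters. Of 11 tested, 5 reached an unadjusted p under 0.05 when no block was used, all higher, against 2.22% of all tested genes in that direction and 1.76% in the other, and 0 passed after adjustment. With the block 9 reached an unadjusted p under 0.05 (8.89% of all tested genes did) and 1 passed after adjustment, as higher (0.528% of all tested genes). The 9 were not all higher, since SP1 fell, by -0.099 in the paired edgeR test (unadjusted p = 0.0358). SP1 was higher after strain in 0 of 4 pairs, and the rest of the 9 had positive changes. The median log2 change of the list was 0.44, against -0.0032 over all tested genes. The gene that passed was ETS1, which measured 106 ± 18.2 CPM without strain and 123 ± 17.7 after it. It rose by 0.23 ± 0.05 in the paired edgeR test (adjusted p = 0.0332). The ETS1 call was lost without replicate 1, 2 or 4 (paired edgeR test, adjusted p of 0.198, 0.139 and 0.211). It was also lost with the block of 2 levels (0.0516) and in limma-voom with the block (0.0559). Its log2 change in these fits ran from 0.18 to 0.24, and the call held without replicate 3 (0.000805) and in DESeq2 with the block (0.00853).

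ETS2, a relative of ETS1, measured 81.2 ± 10.3 CPM without strain and 118 ± 8.99 after it, with no overlap, as for 1.3% of all tested genes in that direction. Its log2 change of 0.54 missed the threshold in edgeR's test (adjusted p = 0.114 without the block and 0.206 with it). FOSL2, a subunit of the factor AP-1, measured 275 ± 35.6 and 381 ± 41.0 CPM, also with no overlap, and differed by 0.47 (edgeR, adjusted p = 0.422 and 0.296). DESeq2, with and without the block, and limma-voom with the block called both. Without control replicate 3, both passed in edgeR's test without the block (adjusted p = 0.0109 for ETS2 and 0.0144 for FOSL2), as did 12 of all tested genes. Of 25 alternatives, ETS2 passed in 8 and FOSL2 in 5. FOSB, a further AP-1 subunit and the only other gene of the list without overlap, measured 1.45 ± 0.913 and 4.37 ± 1.00 CPM, a difference of 1.59 (edgeR, adjusted p = 0.472 and 0.186). SP1 and RELA changed by -0.10 and 0.01 without the block and did not pass.

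Over all related lists, 56 of 83 genes other than the members were tested. With the block 2 of them passed in edgeR, TIMP3 and ETS1, both higher (0.528% of all tested genes passed as higher). Without it 0 passed in edgeR, and DESeq2 called 3, among 40 called of all 14571 tested genes. At an unadjusted p under 0.05 without the block there were 6, all higher, against 2.22% of all tested genes in that direction. The median log2 change of the 56 was 0.02. The lists were drawn up with earlier results of these wells known, so their counts are a description.

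**Figure D4:**
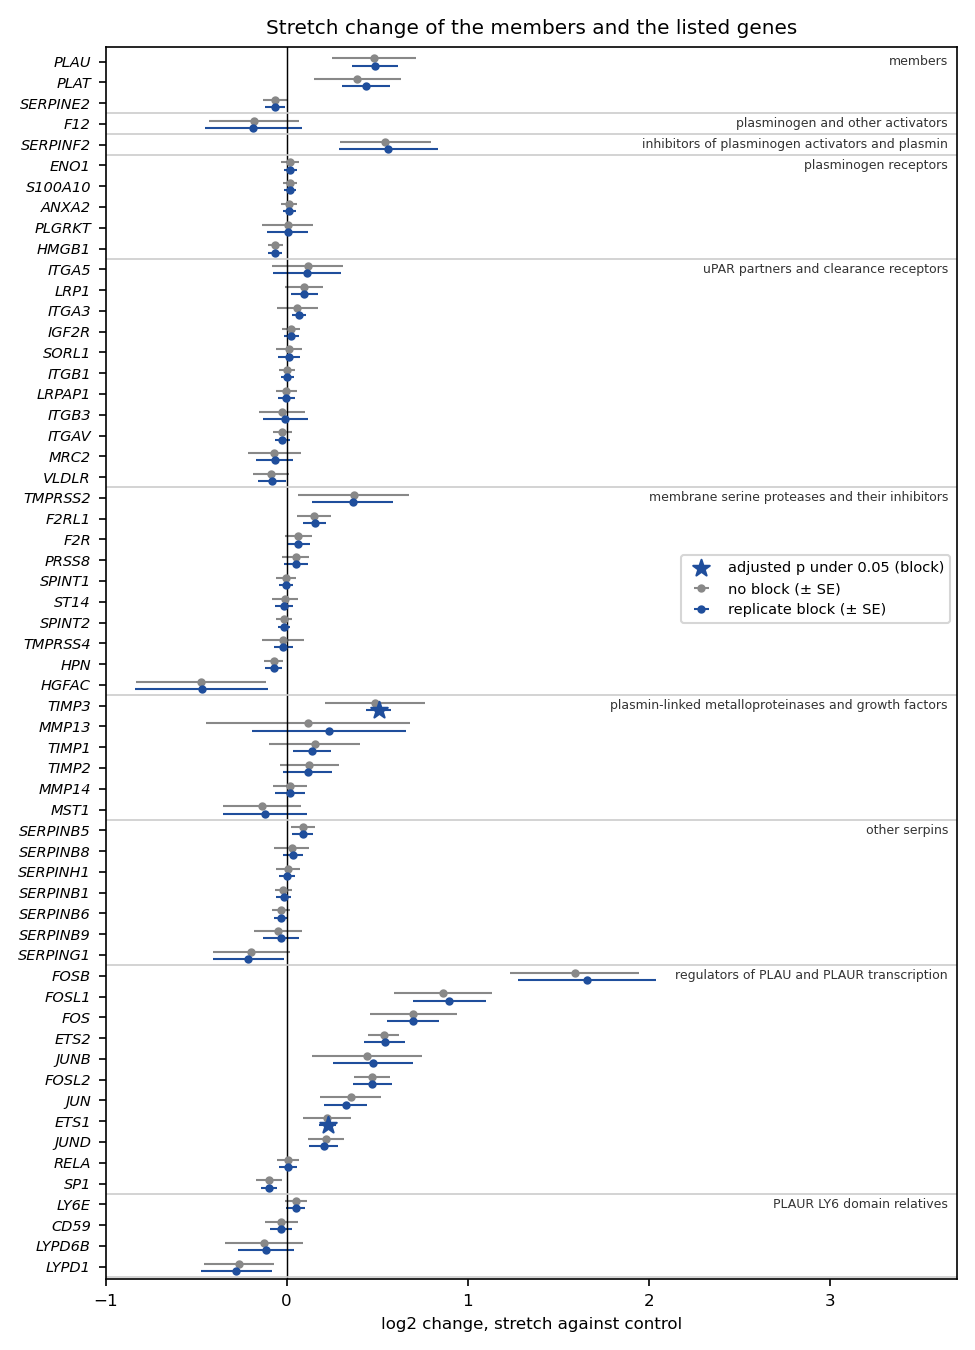
Log2 change after strain of the 3 members and 56 related genes, grouped by list, with points and SE bars from edgeR without (grey) and with (blue) the replicate block. Stars mark TIMP3 and ETS1, the genes with an adjusted p under 0.05 with the block; PLAU and PLAT lie to the right of 0 and SERPINE2 next to it.

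Over the 8 wells, the genes whose log2 CPM followed PLAU most closely, among 13135 genes of at least 1 CPM, were C25H8orf58, SH3TC1 and LOC119870913, with Pearson's r of 0.974, 0.973 and 0.966. With the group means removed, r was 0.979, 0.96 and 0.963, so the likeness was as high among wells of the same group. SH3TC1 passed with the block (edgeR, log2 change 0.32, adjusted p = 0.021), in which PLAU did not. For PLAT the closest were GRAP2, TMX2 and SYNPO, at 0.991, 0.971 and 0.965. GRAP2 was low, at 1.83 ± 1.59 CPM without strain and 2.82 ± 0.991 after it, and was highest in replicate 3 of both groups, as PLAT was. For SERPINE2 the closest were LOC119878767, CCT6A and B4GALT1, at 0.997, 0.978 and 0.975. As given above, LOC119878767 and SERPINE2 did not vary as separate counts, so the r of 0.997 is no likeness of separate genes. These correlations describe 8 wells that share a cell line and a library preparation, they are the highest of many, and they carry no test.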

How the data were processed

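Polyadenylated RNA was sequenced from strand-specific TruSeq libraries, per the labels. The deposited values are raw counts per gene, which the authors summed over its exons. FastQC 0.11.8, Trim Galore 0.6.5, STAR 2.7.3a, Subread and featureCounts are named in the submitters' processing notes. The build, strandedness option and treatment of multi-mapping reads are not given in the sources used here. Of the 37952 gene symbols, 37291 were found in RefSeq's table for UU_Cfam_GSD_1.0, a dog assembly, all 37291 with the same start and end. All 8 count columns were matched to wells by library name. No sequence was used here.

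Counts were tested in R 4.3.3 with edgeR 4.0.16 (quasi-likelihood test, robust), TMM factors and filterByExpr (minimum count 10, minimum total 15), which left 14571 genes. P-values are two-sided and adjusted by Benjamini-Hochberg over all tested genes, with a threshold of 0.05. The 95% intervals use edgeR's degrees of freedom and SE, the log2 change divided by the root of F. CPM were scaled by TMM library sizes, and log2 CPM used a prior count of 2. The block is the replicate number shared by titles of both groups. The labels do not say what the numbers share, but equal-numbered wells deviated together from their group means, with correlations across genes of 0.328, 0.108, 0.182 and 0.178, so the numbers were taken as pairs and both fits are given.

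Alternatives were DESeq2 1.42.0, limma-voom (limma 3.58.1), other scaling factors and count filters, a block of 2 levels, separate fits of replicates 1 and 2 and of 3 and 4, and leaving out each well or pair. The scripts were tested on simulated data. Genes named are the members, listed genes past the threshold, the 2 smallest p-values of each list and the 3 genes most like each member; other listed genes are named for their level or their absence, and were chosen after their values were seen. A further gene of the pathway is not reported here, and the lists and plots leave it out. The members and lists were chosen with earlier results of these data known. Plots used matplotlib 3.10.9 (Python 3.11.15).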

Additional observations from a re-analysis of the deposited data

Results flagged for a closer look

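In 4 of 58 groups of 4 wells (29 named genes, CPM), a single well stood apart: its gap to the nearest well, as a share of the whole range, exceeded Dixon's 95% critical value of 0.829. Chance gives about 1 in 20, or 2.9. PLAT measured 11.3 CPM in stretch replicate 3, against 8.63 to 8.93 in the other stretch wells. GRAP2, the gene most like PLAT over the wells, measured 4.29 CPM in the same well, against 2.14 to 2.47. FOSL2 measured 328 CPM in control replicate 3, against 252 to 262. LRP1 measured 15.75 CPM in control replicate 1, against 19.9 to 20.3. Without that well, the LRP1 log2 change without the block went from 0.10 to 0.02.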

How the results depend on the processing

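The count of genes called, 0 in edgeR without the block (579 at an unadjusted p under 0.05), depended on the model. It was 102 with the replicate block, 58 with the block of 2 levels, 11 without a filter on low counts, 40 in DESeq2, 145 and 122 in DESeq2 and limma-voom with the replicate block, and 51 and 25 within replicates 1 and 2 and within 3 and 4. It ranged from 0 to 12 without single wells (12 without control replicate 3) and from 43 to 186 without single pairs, with the replicate block (43, 67, 186 and 74 without replicates 1 to 4). Of the related genes, 0 were called without the block. The replicate block gave 2, DESeq2 3, no filter 1, DESeq2 and limma-voom with the block 6 each, replicates 1 and 2 alone 5, replicates 3 and 4 alone 1. Leaving out wells gave 0 to 3, and leaving out pairs 1 to 7.

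PLAU stayed higher under all 25 alternatives and passed in 2 of them: DESeq2 with the replicate block (0.49) and the paired fit without replicate 4. Its log2 change ran from 0.30 to 0.67 when wells or pairs were left out. PLAT stayed higher under all 25 and passed in 2: replicates 1 and 2 alone (0.76) and the paired fit without replicate 3 (0.616). It ran from 0.26 to 0.71 without single wells. DESeq2 with the block gave PLAT no adjusted p. SERPINE2 passed under none and ran from -0.11 to 0.02 without wells or pairs, being above 0 only in the paired fit without replicate 3, at 0.018. In edgeR and limma-voom the replicate block changed no call of a member; in DESeq2 it took the adjusted p of PLAU from 0.92 to 0.0352.

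Small changes of sign, none past the threshold, occurred in these genes. F12 was at 0.12 and HPN at 0.0077 within replicates 1 and 2, as was CCT6A at 0.0082. SERPING1 was at 0.056 and LY6E at -0.0056 within replicates 3 and 4. When wells or pairs were left out, B4GALT1 ran from -0.040 to 0.0016 and reached 0.014 in pairs, S100A10 ran from -0.00041 to 0.035 and reached -0.0034, CCT6A reached 0.015, LOC119878767 0.020, F12 0.042 and TIMP2 -0.016. The cause was not tested. Low counts limit SERPINF2.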
